A study of Mus musculus with 8 samples.

Results

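The 10 genes described here encode the core proteins that divide and join mitochondria: *Dnm1l*, *Mff*, *Fis1*, *Mief1* and *Mief2* on the side of fission, *Mfn1*, *Mfn2* and *Opa1* on the side of fusion, and *Oma1* and *Immt*, which act on the inner membrane. They were taken by gene symbol from a table of 24982 genes, and all 10 were found. The list was chosen by earlier measured differences between the aspartame and plain water groups of these same libraries, among them the lower *Mff* level, so the differences of the members are given as a description without a p-value. The samples were amygdalae, the brain region of fear and anxiety responses, microdissected from 8 male C57BL/6 mice. In the plain water group 4 mice drank plain water, and in the aspartame group 4 mice drank water with 0.03% aspartame, an artificial sweetener. The mice were 187 to 189 days old and had been exposed for 18 wk by the labels, whereas the methods give a shorter time. The labels name no allele or transgene, and each mouse gave 1 RNA library. The labels give group housing and the methods housing in pairs, but not which mice shared a cage, so the spread given below is that between single animals.

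Mitochondria are a dynamic network. DRP1, the GTPase encoded by *Dnm1l*, is recruited from the cytosol by receptors on the outer membrane and constricts the organelle, while mitofusins join outer membranes and OPA1 joins inner membranes. In neurons fission yields mitochondria small enough to travel along axons and dendrites, and MFF in particular has been linked in cortical axons of the mouse to the size of presynaptic mitochondria and to presynaptic calcium.

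Values are regularized log2 (rlog) values per gene and library, so a difference of 1 is a doubling. A single aspartame mouse was excluded in the study after a principal component analysis, without being named. It was taken to be aspartame 2, which lay at 27.6 on the first component (55.8% of the variance), opposite to the other aspartame libraries (-24.0 to -5.55), with plain water from -4.32 to 10.3. Correlations between libraries were 0.993 to 0.997 within plain water and 0.971 to 0.993 within aspartame. Each of the 10 genes is therefore compared over 7 libraries, with aspartame 1, 3 and 4, and over all 8. Many single genes of the other lists and the cell type markers are given over 7 libraries only. Depth is unknown because the table holds no counts. The 8 amygdala markers were all detected, with a mean of 6.88 to 7.18 in plain water and 6.99 to 7.27 in the 4 aspartame libraries, and 2 hemoglobin genes were listed at 0 in every library. In bulk tissue, fewer cells of a type and less RNA per cell cannot be told apart.

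The promoters of *Mff*, *Immt* and *Opa1* are shown because *Mff* and *Immt* carried the lowest differences of the list and *Opa1* is a fusion gene whose level hardly differed. Each is 250 bases before to 50 after the RefSeq start on GRCm38.p6, with capitals marking matches to the motifs searched. For *Mff* the interval is chr1:82724640-82724939 on the plus strand, for *Immt* chr6:71831070-71831369 on the plus strand and for *Opa1* chr16:29579084-29579383 on the plus strand.
*Mff*: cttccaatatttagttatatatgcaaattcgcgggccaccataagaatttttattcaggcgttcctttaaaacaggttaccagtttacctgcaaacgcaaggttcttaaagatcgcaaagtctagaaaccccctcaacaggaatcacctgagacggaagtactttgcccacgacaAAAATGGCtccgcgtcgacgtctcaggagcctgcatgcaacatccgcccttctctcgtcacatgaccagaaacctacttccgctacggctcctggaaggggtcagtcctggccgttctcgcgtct
*Immt*: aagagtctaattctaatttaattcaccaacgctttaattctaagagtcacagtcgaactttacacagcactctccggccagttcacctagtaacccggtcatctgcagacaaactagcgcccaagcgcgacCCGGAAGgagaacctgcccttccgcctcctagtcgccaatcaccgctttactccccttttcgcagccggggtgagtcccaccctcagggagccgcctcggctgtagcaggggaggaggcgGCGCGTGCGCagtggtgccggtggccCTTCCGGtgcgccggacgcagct
*Opa1*: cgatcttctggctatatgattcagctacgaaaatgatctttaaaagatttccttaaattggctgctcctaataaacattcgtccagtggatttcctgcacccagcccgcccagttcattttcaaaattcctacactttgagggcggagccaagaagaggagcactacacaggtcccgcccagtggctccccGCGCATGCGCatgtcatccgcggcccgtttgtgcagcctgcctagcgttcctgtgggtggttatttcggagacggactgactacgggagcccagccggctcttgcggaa
Motifs of factors known at promoters of nuclear genes for mitochondrial proteins were searched on both strands. The *Mff* promoter held the core of YY1 (AANATGGC), which 6.43% of the 21879 reference promoters of genes measured here hold. The *Immt* promoter held 2 matches to the ETS core (CCGGAAG, in 11.5% of promoters) and 1 to the palindromic NRF1 motif with 1 base left free (6.35%). The *Opa1* promoter held the full NRF1 motif (1.32%), which is contained in the free-base form. Counted per gene, with any of its promoters, 5 of the 10 held the ETS core (12.8% of 18203 genes), 3 the YY1 core (7.45%), 3 the NRF1 form with 1 free base (7.09%) and 1 an E-box (CACGTG, 9.12%), while none held a cAMP response element (TGACGTCA, 2.58%). These are matches of letters in a window and not binding sites.

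The fission genes came first. *Dnm1l* (chr16:16312230-16358959, GRCm38, minus strand) encodes DRP1, the dynamin-like GTPase that severs the organelle. Its rlog was 10.32, 10.41, 10.48 and 10.39 in plain water 1 to 4 and 10.29, 10.73, 10.44 and 10.11 in aspartame 1 to 4. The groups overlapped, with aspartame 2 highest and aspartame 4 lowest of the 8 libraries. Over 7 libraries the means were 10.40 ± 0.064 (SD, n = 4) and 10.28 ± 0.17 (SD, n = 3), a difference of -0.12 ± 0.088 (SE). Over 8 libraries the difference was -0.0085 ± 0.12 (SE).

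*Mff* (chr1:82724890-82752394, plus strand, 16 annotated transcripts) encodes mitochondrial fission factor, the tail-anchored outer membrane receptor of DRP1. Its rlog was 9.05, 9.12, 9.10 and 8.97 in plain water 1 to 4 and 8.62, 9.20, 8.67 and 8.23 in aspartame 1 to 4. Aspartame 1, 3 and 4 all lay below the lowest plain water library, whereas aspartame 2 lay above the highest. Over 7 libraries the means were 9.06 ± 0.066 (SD, n = 4) and 8.51 ± 0.24 (SD, n = 3), a difference of -0.55 ± 0.10 (SE), or 0.682-fold. Over 8 libraries the groups overlapped and the difference was -0.38 ± 0.17 (SE), or 0.769-fold. *Mff* had the lowest difference of the 10 genes on both bases.

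The other fission receptors did not share the low values of *Mff*. *Fis1* (chr5:136953275-136966234, plus strand) encodes the adaptor that was the first DRP1 receptor known in yeast and that in mammals has a lesser part in fission. Its rlog was 7.68, 7.61, 7.42 and 7.60 in plain water 1 to 4 and 7.58, 7.19, 7.37 and 7.64 in aspartame 1 to 4. The groups overlapped on both bases, with differences of -0.045 ± 0.094 (SE) over 7 and -0.13 ± 0.12 (SE) over 8 libraries. *Mief1* (chr15:80234018-80253371, plus strand) and *Mief2* (chr11:60728398-60732951, plus strand) encode MiD51 and MiD49, paired receptors that recruit DRP1. *Mief1* rlog was 6.20, 6.33, 6.24 and 6.20 in plain water 1 to 4 and 6.32, 6.27, 6.44 and 6.24 in aspartame 1 to 4. *Mief2* rlog was 5.19, 4.89, 5.21 and 5.01 in plain water 1 to 4 and 5.09, 4.77, 5.14 and 5.02 in aspartame 1 to 4. Both pairs of groups overlapped, and the 7-library differences were 0.088 ± 0.086 (SE) for *Mief1* and 0.014 ± 0.098 (SE) for *Mief2*. Over 8 libraries they were 0.072 ± 0.089 (SE) and -0.065 ± 0.11 (SE). *Mief2* shares its strand and 64 bases with *Mir5100*, a microRNA gene that has its own row in the table.

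**Figure D1:**
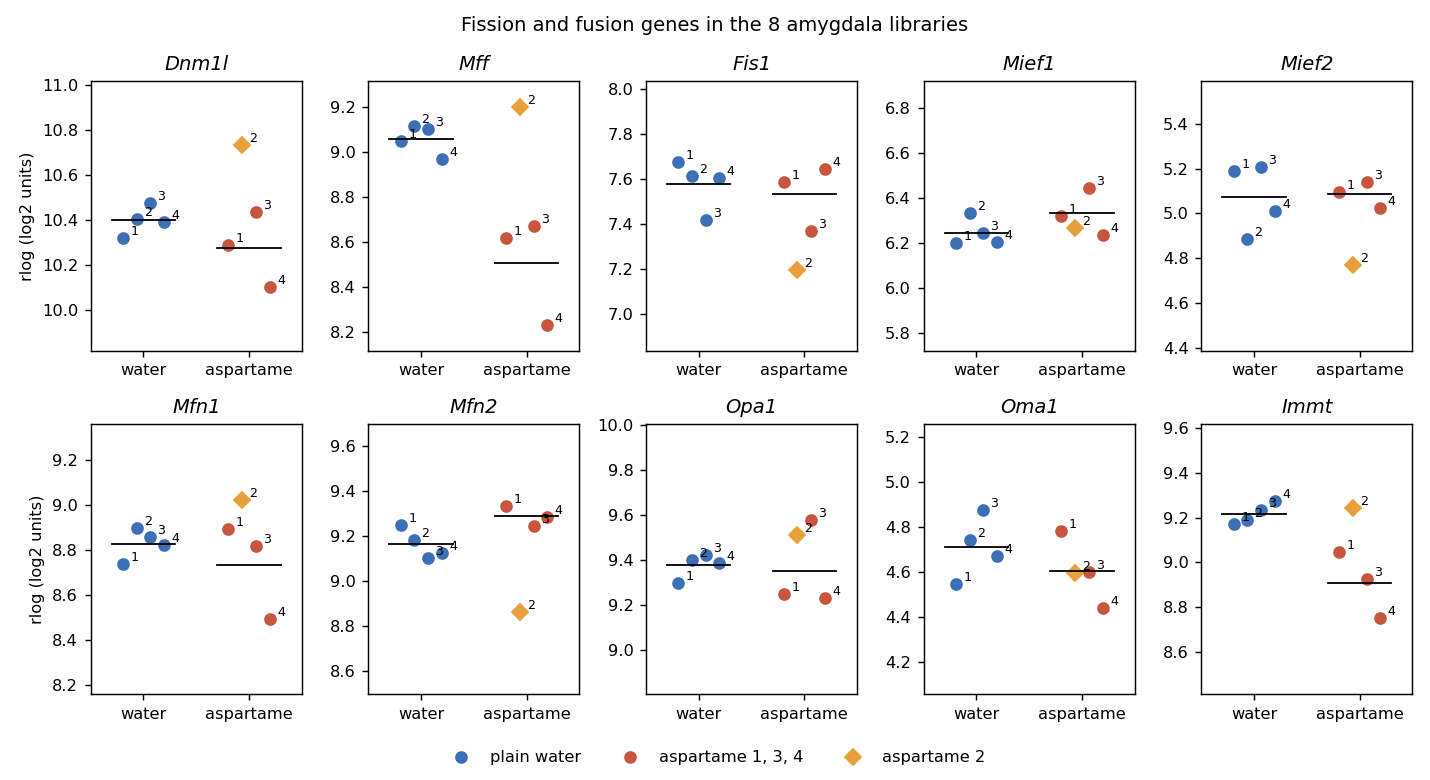
The rlog of each of the 10 genes is plotted by library, with 1 panel per gene, 4 plain water and 4 aspartame libraries on the horizontal axis and a vertical span of 1.2 log2 units in every panel. Black lines are the means of plain water 1 to 4 and of aspartame 1, 3 and 4. In the *Mff* panel aspartame 1, 3 and 4 lie at 8.23 to 8.67, below the plain water libraries, and aspartame 2 at 9.20 above them.

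Among the fusion genes, *Mfn1* and *Mfn2* encode the outer membrane mitofusins, and MFN2 also tethers mitochondria to endoplasmic reticulum. *Mfn1* (chr3:32529465-32579239, plus strand) had an rlog of 8.74, 8.90, 8.86 and 8.82 in plain water 1 to 4 and 8.89, 9.02, 8.82 and 8.49 in aspartame 1 to 4. The groups overlapped, and the difference was -0.093 ± 0.098 (SE) over 7 and -0.021 ± 0.11 (SE) over 8 libraries. *Mfn2* (chr4:147873599-147904704, minus strand) had an rlog of 9.25, 9.18, 9.10 and 9.12 in plain water 1 to 4 and 9.34, 8.86, 9.25 and 9.28 in aspartame 1 to 4. Aspartame 1 and 4 lay above every plain water library, aspartame 3 at the level of the highest and aspartame 2 below the lowest. The *Mfn2* means were 9.17 ± 0.066 (SD, n = 4) and 9.29 ± 0.045 (SD, n = 3), a difference of 0.12 ± 0.072 (SE) that was the highest of the 10 genes over 7 libraries, and 0.017 ± 0.11 (SE) over 8. *Opa1* (chr16:29579334-29654884, plus strand) encodes the inner membrane fusion GTPase, mutated in dominant optic atrophy in humans. Its rlog was 9.30, 9.40, 9.42 and 9.38 in plain water 1 to 4 and 9.25, 9.51, 9.57 and 9.23 in aspartame 1 to 4, the plain water values lying within the spread of the aspartame values. The *Opa1* difference was -0.023 ± 0.092 (SE) over 7 and 0.016 ± 0.099 (SE) over 8 libraries.

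*Oma1* and *Immt* act on the inner membrane. *Oma1* (chr4:103313812-103371868, plus strand) encodes the stress-activated protease that cuts OPA1 and thereby stops inner membrane fusion. Its rlog was 4.55, 4.74, 4.88 and 4.67 in plain water 1 to 4 and 4.78, 4.60, 4.60 and 4.44 in aspartame 1 to 4. The groups overlapped, with differences of -0.10 ± 0.10 (SE) over 7 and -0.11 ± 0.10 (SE) over 8 libraries. *Immt* (chr6:71831331-71877388, plus strand, 14 annotated transcripts) encodes mitofilin, also called MIC60, the central subunit of the MICOS complex that shapes cristae. Its rlog was 9.17, 9.19, 9.23 and 9.28 in plain water 1 to 4 and 9.05, 9.24, 8.93 and 8.75 in aspartame 1 to 4. Aspartame 1, 3 and 4 all lay below plain water, and aspartame 2 lay among the plain water libraries. The *Immt* means were 9.22 ± 0.047 (SD, n = 4) and 8.91 ± 0.15 (SD, n = 3), a difference of -0.31 ± 0.082 (SE) or 0.808-fold over 7 libraries, and -0.23 ± 0.11 (SE) over 8.

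**Figure D2:**
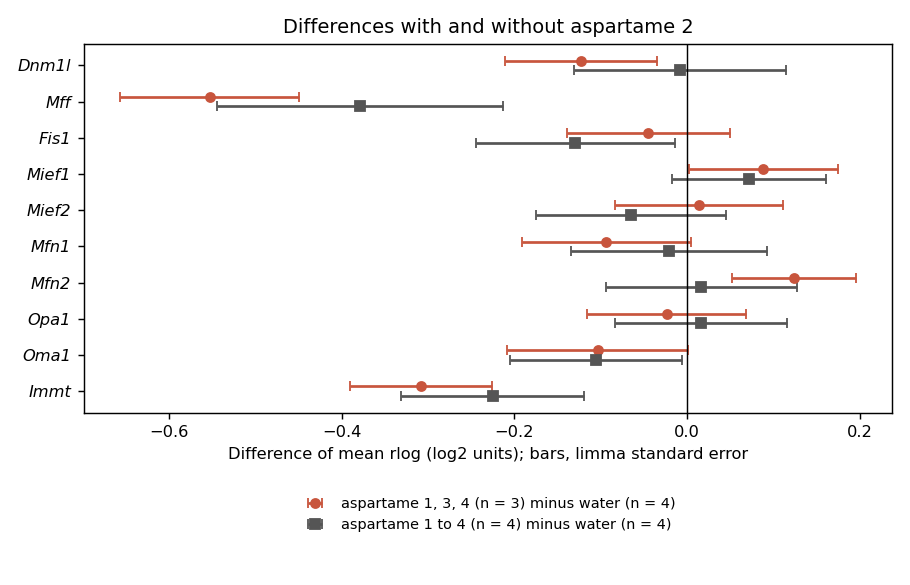
The difference in rlog, aspartame minus plain water, is plotted on the horizontal axis for each of the 10 genes with its SE, once over 7 libraries (without aspartame 2) and once over all 8. *Mff* at -0.55 and *Immt* at -0.31 lie farthest to the left over 7 libraries, and the other 8 genes lie between -0.12 and 0.12.

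All 10 genes had a mean rlog of at least 3 and entered the limma test across all genes. Over 7 libraries *Mff* and *Immt*, 2 of 10, passed an adjusted p under 0.05, both lower with aspartame, where 8.81% of 12870 genes passed and 2.71% passed lower (27.1% at an unadjusted p). They were also the 2 of 10 whose groups did not overlap, against 23.0% of all genes and 12.0% lower. Over 8 libraries the groups overlapped in all 10, against 3.37% of all genes without overlap (2.37% lower). Because the list was chosen with this comparison known, nothing is read from these shares. Over 8 libraries limma called 0 of 10 members and 0 of 12861 genes. At an unadjusted p under 0.05 it took 1 member and 553 genes (4.30%), and with library weights, under which aspartame 2 had the lowest weight, it called 1 member and 443 genes. The median difference of the 10 genes was -0.069 over 7 libraries, where that of all genes was -0.0042, and -0.043 against 0.0033 over 8. On both bases 7 of the 10 were lower with aspartame, where 50.9% of all genes were lower over 7 libraries and 48.8% over 8. The *Mff* call was lost without plain water 3, with a difference of -0.54, and that of *Immt* without plain water 1, 2, 3 or 4 or aspartame 4, with differences of -0.32 to -0.23.

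The balance of the list was then read within each library, as a description. *Mff* minus its partner *Dnm1l* was -1.42 to -1.27 in plain water and -1.87 to -1.67 in aspartame 1, 3 and 4, and aspartame 2 at -1.53 also lay below plain water. In aspartame 2 both genes were at their highest, *Dnm1l* by more than *Mff*, so the low value there was not one of *Mff* itself. The mean of the 5 fission genes minus that of the 3 fusion genes was -1.488 to -1.407 in plain water. It was -1.60 to -1.55 in aspartame 1, 3 and 4, and -1.498 in aspartame 2, which lay just outside the plain water range. The fission mean contains *Mff*, whose 7-library difference of -0.55 was known when the list was chosen. The other fission genes differed by -0.12 (*Dnm1l*), -0.045 (*Fis1*), 0.088 (*Mief1*) and 0.014 (*Mief2*). The lower fission mean thus largely repeats the value of *Mff* and is no shift of the whole list. *Mff* minus *Mfn2* was -0.20 to -0.0024 in plain water, -0.72, -0.58 and -1.05 in aspartame 1, 3 and 4 and 0.34 in aspartame 2. That difference placed aspartame 2 on the other side of plain water from the rest of its group.

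**Figure D3:**
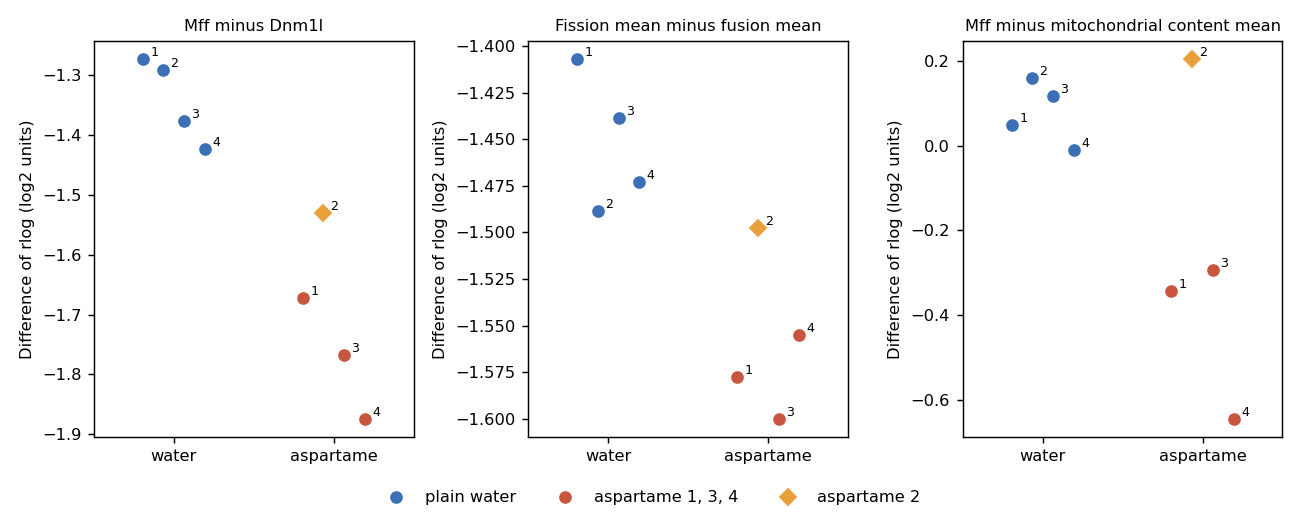
Differences between rlog values within a library are plotted by library for plain water 1 to 4 and aspartame 1 to 4, in log2 units on the vertical axis. The panels hold *Mff* minus *Dnm1l*, the fission mean minus the fusion mean, and *Mff* minus the mean of the mitochondrial content genes. *Mff* minus *Dnm1l* lies at -1.42 to -1.27 in plain water, at -1.87 to -1.67 in aspartame 1, 3 and 4 and at -1.53 in aspartame 2. In aspartame 2 *Mff* itself was not low: relative to the plain water mean it was higher by 0.14, and *Dnm1l* by 0.33. The lower *Mff* level was known when the list was chosen.

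Aspartame 2 moved opposite to the other aspartame libraries in 7 of the 10 genes, against 66.4% of all genes. Relative to the plain water mean its rlog differed by 0.33 for *Dnm1l*, 0.20 for *Mfn1* and 0.14 for *Mff*, the genes in which it was highest of the 8 libraries. It differed by -0.38 for *Fis1*, -0.30 for *Mfn2* and -0.30 for *Mief2*, in which it was lowest. The former had a median transcript GC content of 40.9% to 45.3% and the latter of 54.1% to 61.7%. Across all genes the rlog of the GC-richest minus the GC-poorest decile, each centred on the gene's mean, was -0.21 to 0.18 in plain water. Aspartame 1, 3 and 4 had 0.37, 0.043 and 0.45, and aspartame 2 had -0.63, the lowest of all. The groups differed in this gap by 0.35 over 7 libraries (exact permutation test, two-sided p = 0.114, where 0.0571 is the smallest possible) and by 0.13 over 8 (exact permutation test, two-sided p = 0.657, where 0.0286 is the smallest possible). Against genes within 1 percentage point of their own GC content, *Mff* at -0.55 stood beside a median of -0.088 over 1264 genes, and *Immt* at -0.31 beside -0.051 over 1507. With the trend of GC content and length removed in each library, the 7-library difference was -0.45 for *Mff* and -0.27 for *Immt*, and the *Immt* call was lost. These used the median over annotated transcripts (45.2% GC for *Mff* and 48.4% for *Immt*), and with the longest transcript (37.3% and 39.8%) the differences were -0.43 and -0.17.

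**Figure D4:**
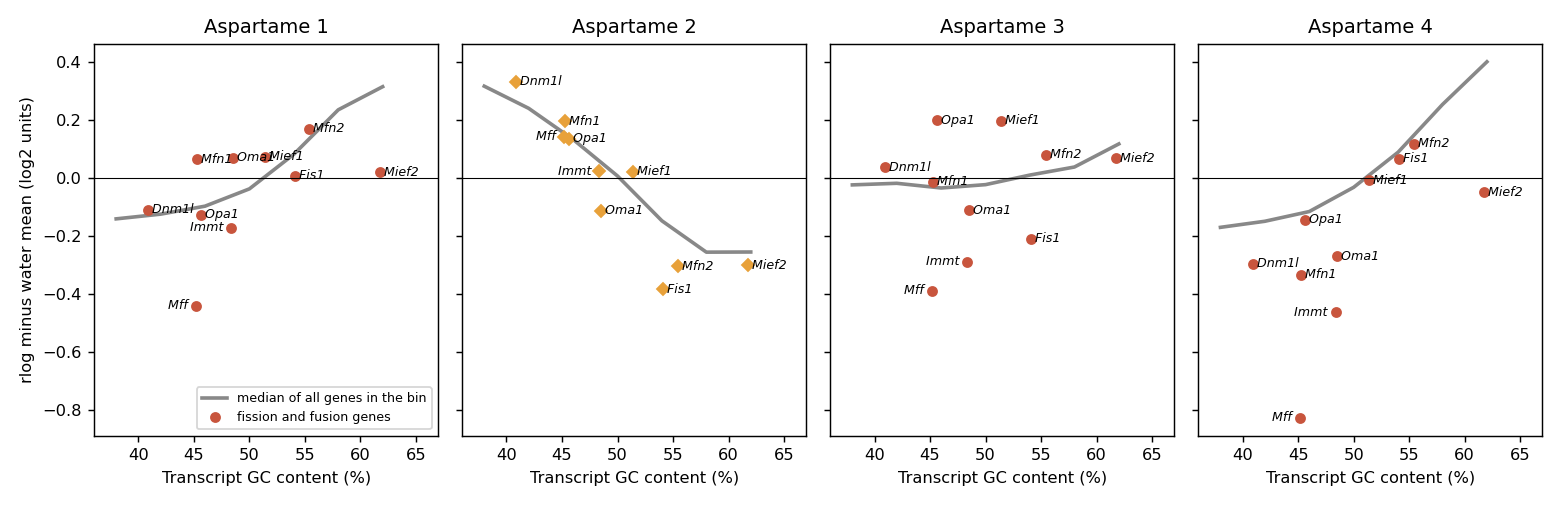
The rlog of each gene minus its plain water mean is plotted against the GC content of its transcripts in percent, with 1 panel for each aspartame library and a grey line at the median of all genes in bins of GC content. In aspartame 2 *Dnm1l*, *Mfn1* and *Mff* lie above 0 and *Fis1*, *Mfn2* and *Mief2*, the genes of higher GC content, below 0.

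Levels were compared between genes as rlog minus the log2 of transcript length in kb, in plain water. With the median length of the annotated transcripts, *Mfn1* was highest at 9.33, followed by *Dnm1l* at 8.86, *Mff* at 8.47, *Fis1* at 8.00, *Immt* at 7.98, *Mfn2* at 7.89 and *Opa1* at 7.70. *Oma1* at 5.94, *Mief2* at 5.56 and *Mief1* at 4.75 followed far below. The ranges over libraries overlapped among *Fis1*, *Immt* and *Mfn2*. With the longest transcript the order became *Dnm1l* 8.41, *Fis1* 7.65, *Immt* 7.42, *Mff* 7.09, *Mfn2* 7.05, *Opa1* 6.73 and *Mfn1* 6.64, again with *Mief1* 3.88, *Oma1* 3.77 and *Mief2* 3.74 last. The place of *Mfn1* thus turned on the transcript chosen, and with the longest transcript the ranges overlapped for *Mff* with *Mfn2*, for *Opa1* with *Mfn1* and among the last 3. Under both lengths *Dnm1l* stood above the 4 receptors of its protein.

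The genes around the core machinery were taken from 6 lists, of which 52 of 54 genes could be tested. Over 7 libraries limma called 4 of the 52, 1 higher and 3 lower, against 8.81% of all genes, and over 8 libraries 0 of 52, with 1 at an unadjusted p under 0.05. Their median difference was -0.0074, with 26 genes higher and 26 lower, where 50.9% of all genes were lower. At an unadjusted p under 0.05 stood 18 of the 52, against 27.1% of all genes. The lists were made with earlier results of these data known, so the adjusted p-values of their genes are given as a description. With the GC and length trend removed, or with age as a covariate, *Inf2* was the 1 related gene still called.

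Among 13 regulators of fission, 1 was called higher and 2 lower, with a median of -0.057, where 6.10% of all genes were called higher and 2.71% lower. *Inf2* encodes the formin whose form on the endoplasmic reticulum builds actin at sites of fission. Its rlog was 6.76, 6.90, 6.49 and 6.49 in plain water 1 to 4 and 8.34, 6.10, 7.69 and 7.69 in aspartame 1 to 4. Aspartame 1, 3 and 4 lay above plain water and aspartame 2 below it. The difference was 1.24 ± 0.16 (SE) over 7 and 0.79 over 8 libraries, given without a p-value because it was known beforehand. *March5*, the outer membrane ubiquitin ligase that acts on DRP1 and its receptors, had an rlog of 8.16, 8.31, 8.30 and 8.27 in plain water 1 to 4 and 7.91, 8.56, 7.98 and 8.04 in aspartame 1 to 4. It was lower by the test over 7 libraries, by -0.28 ± 0.076 (SE, limma adjusted p = 0.0424). *Pgam5*, a mitochondrial phosphatase that can activate DRP1, had an rlog of 7.16, 7.01, 7.07 and 7.14 in plain water 1 to 4 and 6.83, 7.17, 6.83 and 6.68 in aspartame 1 to 4. It was lower by -0.31 ± 0.083 (SE, limma adjusted p = 0.0406). In both genes aspartame 2 lay above every plain water library, and over 8 libraries the differences were -0.14 for *March5* and -0.21 for *Pgam5*. The call was lost for *March5* without plain water 2, 3 or 4 or aspartame 1 or 4 (limma adjusted p = 0.0681 to 0.136) and for *Pgam5* without any plain water library or aspartame 1 or 4 (limma adjusted p = 0.0577 to 0.135).

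No gene was called among 5 further factors of fusion and outer membrane lipids, with a median of -0.13. At an unadjusted p under 0.05 stood 2 of the 5, against 27.1% of all genes. *Mtch2*, an outer membrane protein linked to fusion, differed by -0.27 (limma adjusted p = 0.0972) and *Slc25a46*, an outer membrane carrier homolog, by -0.18 (limma adjusted p = 0.161). Among 8 genes of OPA1 processing and the inner membrane proteases the median was 0.071 and none was called. An unadjusted p under 0.05 was found for 2 of the 8, against 27.1% of all genes. *Spg7*, which encodes the protease paraplegin, differed by 0.33 (limma adjusted p = 0.0692) and *Dele1*, a substrate of OMA1 that relays mitochondrial stress, by 0.20 (limma adjusted p = 0.141). The partners of *Immt* in MICOS and the bridging complex lay lower in 9 of 10 cases with a median of -0.086, against 50.9% of all genes lower, and none was called. An unadjusted p under 0.05 was reached by 2 of the 10, against 27.1% of all genes. *Chchd3*, a MICOS subunit that binds mitofilin, differed by -0.29 (limma adjusted p = 0.0622) and *Mtx2*, a metaxin of the bridging complex, by -0.36 (limma adjusted p = 0.0550).

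The 7 adaptors of mitochondrial transport had a median of 0.040 and none was called, with 4 of 7 at an unadjusted p under 0.05, against 27.1% of all genes. Over 8 libraries 0 of the 7 had an unadjusted p under 0.05, against 4.30% of all genes. *Rhot2*, which encodes MIRO2, differed by 0.27 (limma adjusted p = 0.0955) and *Trak1*, which links MIRO to motors, by 0.29 (limma adjusted p = 0.103). Of 9 mitophagy genes 1 was called, against 8.81% of all genes, with a median of 0.041. *Bnip3*, a mitophagy receptor of the outer membrane, had an rlog of 8.13, 8.29, 8.24 and 8.20 in plain water 1 to 4 and 7.91, 8.47, 8.05 and 7.79 in aspartame 1 to 4. It differed by -0.16 over 8 libraries and was lower over 7 by -0.30 ± 0.084 (SE, limma adjusted p = 0.0471), with aspartame 2 again highest of all. That call was lost without plain water 2, 3 or 4 or aspartame 1 or 4 (limma adjusted p = 0.0932 to 0.138). The receptor gene *Fundc1* differed by -0.37 (limma adjusted p = 0.0603). With the GC and length trend removed, the calls of *March5*, *Pgam5* and *Bnip3* were lost, at -0.25, -0.26 and -0.24 (limma adjusted p = 0.0617, 0.0585 and 0.0868), and with the longest transcript they were -0.16, -0.22 and -0.079. Under the same removal *Rhot2* was 0.060, *Trak1* 0.16, *Mtch2* -0.15, *Chchd3* -0.17, *Mtx2* -0.23 and *Fundc1* -0.22, each moved by more than 1.5 times.

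**Figure D5:**
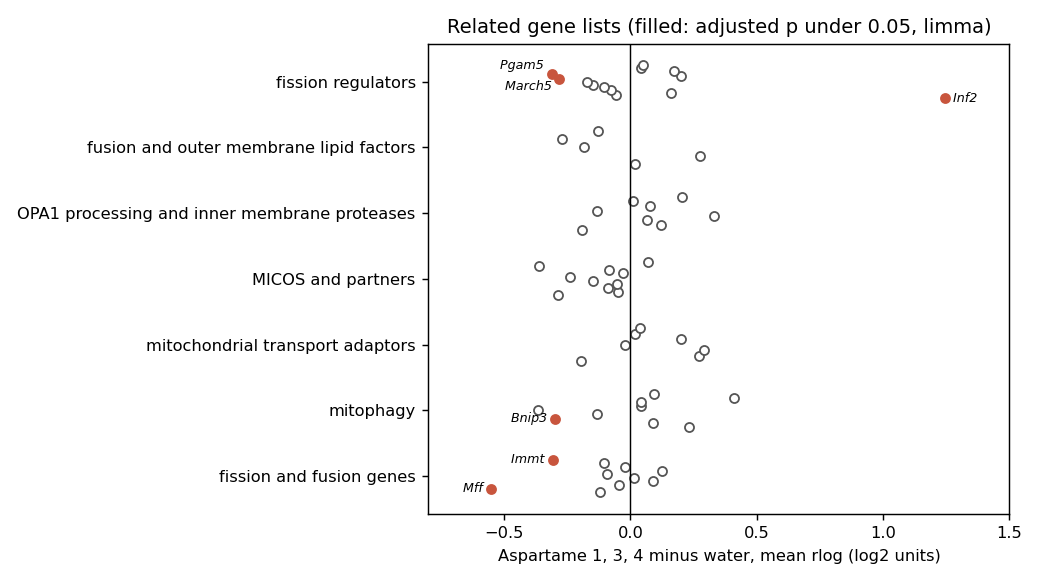
The 7-library difference in rlog, aspartame minus plain water, is plotted on the horizontal axis for each tested gene of the related lists, with 1 row per list and the 10 members in the lowest row. Filled points passed an adjusted p under 0.05. *Inf2* at 1.24 stands to the right, and *March5*, *Pgam5* and *Bnip3* at -0.31 to -0.28 are the called genes of the related lists to the left.

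The lower level of *Mff* was also set against the RNA of a list of genes of mitochondrial content. The mean rlog over 12 genes of mitochondrial content averaged 8.98 (SD 0.018, 4 libraries) for plain water against 8.93 (SD 0.050, 3 libraries) for aspartame. The difference was -0.047 (exact permutation test, two-sided p = 0.171, where 0.0571 is the smallest possible). Over 8 libraries the mean differed by -0.030 (exact permutation test, two-sided p = 0.371, where 0.0286 is the smallest possible). With so few libraries the test cannot show that the mean was unchanged. The difference of this mean was -0.018 without aspartame 4 and -0.096 under quantile normalization over 7 libraries, and -0.0056 and -0.077 over 8. *Mff* minus this mean was -0.0098 to 0.16 in plain water, -0.64 to -0.29 in aspartame 1, 3 and 4 and 0.20 in aspartame 2. *Immt* minus this mean was 0.17 to 0.30, -0.12 to 0.085 and 0.24 in the same order. The list mean differed by only -0.047 over 7 libraries, so these values largely repeat the differences of *Mff* and *Immt* themselves. The members were chosen with earlier results known, and the part of mitochondrial content in their differences was not tested.

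Markers of cell types were compared over the same 7 libraries. The mean of 5 neuron markers was 11.56 to 11.71 in plain water and 11.59 to 11.73 in aspartame 1, 3 and 4, with *Rbfox3* called higher by 0.37 and *Stmn2* called at -0.26. The mean of 5 oligodendrocyte markers was 8.98 to 9.36 and 9.07 to 9.90, where *Mbp*, the myelin basic protein gene, was called higher by 0.62 and *Mag* and *Mobp* differed by 0.48 and 0.43 without a call. That of 2 oligodendrocyte precursor markers was 7.23 to 7.32 and 7.32 to 7.54, where *Cspg4* was called higher by 0.48. These differences were as large as those of *Mff* and *Immt* or near them. None of the astrocyte, microglia and endothelium markers was called. The mean of 3 choroid plexus markers was 4.35 to 6.49 in plain water and 4.45 to 4.69 in aspartame 1, 3 and 4, with none called and *Ttr* at -0.63. The part of these markers in the differences of *Mff*, *Immt* and the related genes was not tested.

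The genes whose rlog followed *Mff* most closely over the 8 libraries were *Bag1* (Pearson r = 0.992), *Pdcd6* (0.991), *Gstm5* (0.989), *Ppp2ca* (0.989) and *Alg14* (0.989). In all, 378 of 12860 genes had an r of at least 0.9, and the libraries share their differences along the first component. Within the list *Immt* (0.936) was nearest, followed by *Dnm1l* (0.778) and *Mfn1* (0.750), while *Mfn2* ran opposite (-0.678).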

How the data were processed

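RNA of 8 amygdalae was sequenced by the authors on an Illumina NovaSeq from stranded mRNA libraries, aligned with STAR to mm10 and counted with Salmon. The values deposited by the authors are log2 values, taken from the table's name as rlog values that the authors made with DESeq2. The authors' options for that step are not given in the sources used here. All 8 sample columns matched a label, and 0 columns were left unmapped.

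Genes whose rlog varied and averaged 3 or more entered a linear model in limma 3.58.1 (R 4.3.3) with moderated variances that followed a mean-variance trend. The Benjamini-Hochberg adjustment ran across all of them. The samples were grouped by their labels, and aspartame 2 was left out of the comparison given first. Fold values are 2 to the power of an rlog difference, and rlog shrinks differences of genes with few reads. Single values per library were compared by two-sided exact permutation. Coordinates, GC content and lengths are from GENCODE M21 on GRCm38, promoters from RefSeq on GRCm38.p6 (matched for all 10 genes).

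The members and lists were chosen with earlier results of these data known. Named genes were the 10 members, the called genes of each related list and of the mitochondrial content list (or the 2 of smallest p where fewer than 2 were called) and the 5 genes most like *Mff*. The alternatives tried were no filter, a minimum of 5, quantile normalization, a median shift, no trend, robust moderation, age, the replicate number as a block, GC and length trend removal, library weights and each library left out. Tests were checked on simulated data. For limma the simulated noise was independent between genes and libraries. That check therefore does not cover a component shared by many genes or a library that stands apart, as seen here.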

Additional observations from a re-analysis of the deposited data

How the results depend on the processing

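Over 7 libraries the limma count of called genes was 1134, 785 of them higher, and quantile normalization gave 1234 with 715 higher. It was 222 with age as a covariate, 659 with the GC and length trend removed, 257 with that trend taken from the longest transcript (a choice made after seeing the data), and 110 to 2082 with each library left out. The called members, *Mff* and *Immt*, became 1 with no filter, with age and under each GC removal (*Mff* in each), and 0 to 2 with a library left out. The called related genes became 1 with age and under each GC removal, and 1 to 14 with a library left out. Over 8 libraries library weights gave 443 genes, 1 member and 1 related gene, and leaving out each library 0 to 1134, 0 to 2 and 0 to 4, the highest being without aspartame 2. The cause was not tested.

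Deviations of same-numbered libraries from their group means correlated at r = 0.53, 0.15, 0.061 and -0.099. Those of differently numbered libraries ran from -0.56 to 0.43. Such correlations cannot show whether same-numbered mice shared a cage or a batch, so whether the numbers pair the mice is unknown. With the replicate block, which drops plain water 2, 1379 genes, 2 members and 5 related genes were called, *March5* and *Bnip3* not among them. The *Bnip3* call was also lost with no filter, a median shift and no trend. With the block and GC removal together, these were 609, 1 and 1.

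Small uncalled differences changed sign. Over 7 libraries *Mief2* was -0.0046 under quantile normalization, -0.056 with age, -0.049 with the block, -0.24 and -0.17 with GC removal by median and longest transcript, and -0.29 with GC removal and block. GC removal without and with block gave 0.029 and 0.050 for *Mfn1*, -0.027 and -0.016 for *Mfn2* and 0.017 and 0.017 for *Opa1*, and the longest transcript 0.022 for *Oma1*. Over 8 libraries quantile normalization gave -0.037 for *Mfn2* and -0.044 for *Opa1*. Age gave 0.013 for *Dnm1l*, 0.0029 for *Mfn1* and -0.0031 for *Mfn2*. GC removal, with or without the block, gave 0.037 for *Mfn1* and -0.051 for *Mfn2*, and by the longest transcript 0.020 for *Dnm1l*, -0.023 for *Mfn2* and -0.016 for *Opa1*. Library weights gave 0.015 for *Mief2* and -0.032 for *Opa1*. With a library left out of the 7, the ranges were -0.049 to 0.058 for *Mief2*, -0.14 to 0.037 for *Opa1*, -0.10 to 0.038 for *Fis1* and -0.17 to 0.027 for *Mfn1*. Out of the 8, they were -0.045 to 0.070 for *Opa1*, -0.093 to 0.083 for *Mfn1*, -0.12 to 0.087 for *Dnm1l*, -0.035 to 0.12 for *Mfn2* and -0.13 to 0.014 for *Mief2*. *Mff* ranged from -0.63 to -0.41 with a library left out of the 7 and from -0.55 to -0.23 out of the 8. Depth could not be weighed, as the table holds no counts, and 3 or 4 mice per group limit the precision.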

Other observations

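The 12 genes of mitochondrial content were not all alike. Over 7 libraries 8 of 12 were lower with aspartame and 4 higher, with a median difference of -0.059 where that of all genes was -0.0042. *Vdac3*, an outer membrane channel for metabolites, had an rlog of 8.95, 9.05, 9.10 and 9.07 in plain water 1 to 4 and 8.84, 9.34, 8.78 and 8.56 in aspartame 1 to 4. It was the 1 gene of the 12 that was called, at -0.32 ± 0.084 (SE, limma adjusted p = 0.0398), where 8.81% of all genes were called. The call was lost without plain water 2, 3 or 4 or aspartame 4 (limma adjusted p = 0.0927 to 0.127). With the GC and length trend removed *Vdac3* was at -0.19 and not called (limma adjusted p = 0.107), and with age as a covariate or no filter the call was lost as well (limma adjusted p = 0.133 and 0.0504). *Timm23*, the inner membrane import channel, differed by -0.29 (limma adjusted p = 0.0541). Over 8 libraries limma called none of the 12, and none had an unadjusted p under 0.05.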
